A study of Mus musculus with 72 samples.

Results

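Transcripts of 46 genes for CD antigens were measured in tumours grown from 4T1 cells, a mouse mammary carcinoma line, after bintrafusp alfa, radiation or both. The 46 genes are the rows of the deposited count table whose symbol begins with Cd and a digit, apart from Cd2, Cd3g, Cd5, Cd8a, Cd40, Cd74 and Cd274, out of 1224 genes in all. The rule uses symbols and no measured values, but it was set with earlier results of these data known. Of the 46 genes 36 passed the filter on low counts and were tested, among 1038 tested genes. The label of surface antigens holds for most of them, with exceptions: Cd5l encodes a secreted protein, and CD68 lies mainly in lysosomes.

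The mice were female BALB/c animals of 6 to 12 weeks, 9 in each of 4 groups, so 36 tumours were compared. All of them received 4T1 cells in the thigh muscle on day -6, were treated on day 0 and were killed on day 6. Control mice received 400 µg of an isotype antibody, BA mice received 492 µg of bintrafusp alfa (M7824), RT mice received radiation with the isotype antibody, and BA+RT mice received radiation with bintrafusp alfa. Bintrafusp alfa joins an antibody against PD-L1 to the outer domain of a receptor that captures TGF-β. The labels name the tissue an orthotopic tumour although the cells were placed in the thigh. No source used here gives the radiation dose. Nothing in the labels says whether RNA of several tumours was pooled.

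CD numbers are given to leukocyte and other cell surface molecules that are recognised by groups of monoclonal antibodies, and the number says nothing of relatedness or function. Some CD molecules belong to the T cell receptor complex, some are ligands on antigen-presenting cells that costimulate or inhibit T cells, some are scavenger or pattern receptors of macrophages, and some mark stromal and vascular cells. Whole tumour RNA was read, so that fewer cells of a type and less RNA per cell cannot be told apart.

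Each gene was read through 1 short amplicon of a targeted panel, so its value counts copies of that stretch only. All 46 amplicons lay inside the gene named beside them on GRCm38, with 90 to 105 bases in the transcript (Cd3d not measured). Coding exons held 37 of them, untranslated regions held 7, a further 1 spanned both, and the listed start of the Cd3d amplicon lay 1 base before a coding exon. The stretches read for Cd72, Cd83, Cd200 and Cd68, on which the results below turn, all lie in coding exons and are shown in the direction of the transcript. They are at chr4:43450114-43450206 on the minus strand, chr13:43801589-43801682 on the plus strand, chr16:45394731-45394825 on the minus strand and chr11:69665257-69665357 on the minus strand.
Cd72 amplicon: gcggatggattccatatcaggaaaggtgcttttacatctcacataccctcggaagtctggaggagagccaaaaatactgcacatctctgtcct
Cd83 amplicon: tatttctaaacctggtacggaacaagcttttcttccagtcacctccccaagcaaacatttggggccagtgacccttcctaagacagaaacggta
Cd200 amplicon: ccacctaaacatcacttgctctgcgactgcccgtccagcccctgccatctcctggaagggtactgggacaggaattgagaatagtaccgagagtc
Cd68 amplicon: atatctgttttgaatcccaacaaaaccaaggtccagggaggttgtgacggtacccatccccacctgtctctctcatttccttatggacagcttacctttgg

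Near copies matter for 3 members, and the Cd3d amplicon was not searched for them. The Cd1d2 amplicon at chr3:86987544-86987634, plus strand, was identical to a coding stretch of its neighbour Cd1d1 at chr3:86998259-86998349, minus strand, in 86 of 91 bases. Counted from 1 at the 5′ end of the Cd1d2 amplicon, the differences were T17C, A23G, C25G, T67A and T70C, with the Cd1d2 base first, and they are in capitals in the pair of sequences here. No source used here says how the authors assigned reads to such copies, so the low Cd1d2 values are uncertain. The amplicon of Cd1d1 itself lies elsewhere, in an untranslated region. The Cd209e amplicon matched Cd209a in 73 of 88 aligned bases and the Cd48 amplicon matched Gm37586 in 54 of 64. The Cd27 and Cd7 amplicons overlap a gene on the opposite strand, Vamp1 and Gm11775, and no source used here says whether counting used strand.
Cd1d2: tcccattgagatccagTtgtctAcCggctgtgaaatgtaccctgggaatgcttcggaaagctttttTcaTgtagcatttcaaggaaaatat
Cd1d1: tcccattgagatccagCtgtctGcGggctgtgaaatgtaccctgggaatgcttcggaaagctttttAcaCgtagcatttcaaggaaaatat

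The libraries of the panel that holds all 46 genes had 959532 to 2616197 counts, and both irradiated groups were sequenced more deeply, with medians of 1902836 counts for RT and 1898032 for BA+RT against 1567411 for control and 1362126 for BA. The 46 genes took 1.48% of these counts. Values are given as CPM, the count scaled by library size and by the trimmed mean of M values (TMM). Since amplicons differ in efficiency, the CPM of a gene is compared between tumours and not with that of another gene. The sum over a list of genes rests mostly on those with the highest CPM. A count of 0 in a library still allows 1.147 to 3.127 CPM, as 3 counts would give at the highest and lowest depth, for counting error only. Some tumours stood apart. Control mouse 6 held the highest or lowest control value for 17 of the 36 tested members, BA+RT mouse 40 did so in its group for 20 and BA+RT mouse 45 for 17. RT mouse 24 and BA+RT mouse 40 had the highest T cell antigen levels of their groups. Epcam, an antigen of epithelial and 4T1 cells, was present in every group, with a mean of 11436 CPM in controls, 9301 CPM in BA tumours, 6544 CPM in RT tumours and 6792 CPM in BA+RT tumours. It was called lower with RT (log2 fold change -0.81), BA (-0.30) and BA+RT (-0.75) than in controls and in BA+RT against BA (-0.45). Muc1, the other epithelial marker on the panels, was lower with BA (-1.0) but higher with RT (2.32) and BA+RT (1.86) than in controls and in BA+RT against BA (2.86), and the part of tumour cell number in the results was not tested. Mb, the myoglobin gene of muscle, had a median of 399 to 1457 CPM.

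**Figure D1:**
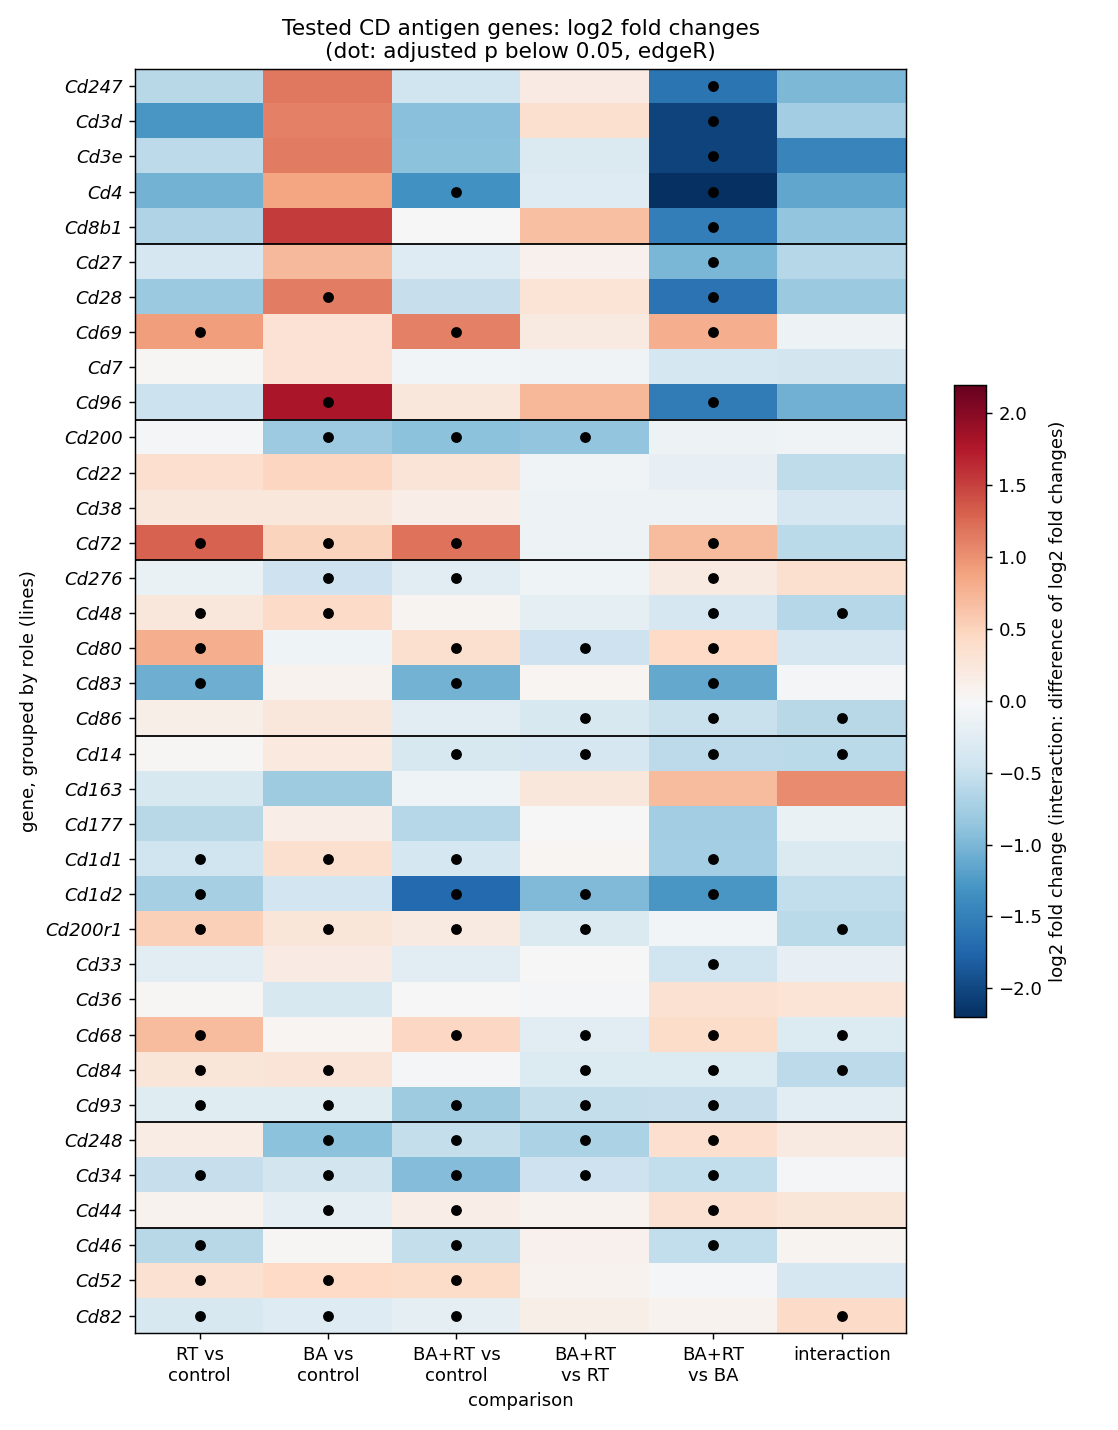
Log2 fold changes of the 36 tested genes (rows, grouped by role) in the 5 comparisons and, in the last column, the interaction; a black dot marks an adjusted p below 0.05. The T cell antigens at the top are lower in all of the first 5 rows in BA+RT against BA, and the column of BA+RT against RT holds 11 dots, all on lower values.

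In RT tumours, an antigen of B cells and myeloid cells (Cd72) and an early activation antigen (Cd69) were higher than in control tumours. So were the costimulatory ligand Cd80, the macrophage antigen Cd68, the inhibitory receptor Cd200r1, the small glycoprotein antigen Cd52, Cd84 and Cd48. The dendritic cell maturation antigen Cd83, both lipid-presenting genes Cd1d1 and Cd1d2, the complement regulator Cd46, the progenitor and endothelial antigen Cd34, the tetraspanin Cd82 and Cd93 were lower. These 8 higher and 7 lower members were 41.7% of the 36 tested, and 41.6% of all tested genes were called in this comparison (edgeR quasi-likelihood test, adjusted p below 0.05), so the share matched the background. The groups did not overlap for 2 members, Cd72 and Cd68, both higher, against 5.20% of all genes higher and 2.41% lower. The median log2 fold change was -0.20 over the members and -0.01 over all tested genes. Scaling by the panels' reference genes moved the median of all genes to 0.18 and the split of members to 12 higher and 2 lower, and that of all genes from 213 higher and 219 lower to 398 and 81. The calls of Cd1d2, Cd34, Cd1d1, Cd82 and Cd93 were lost under that scaling. Without control mouse 6 the split was 5 higher and 10 lower among the members and 232 higher and 271 lower among all genes.

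In tumours of BA mice, the T and NK cell receptors Cd96 and Cd28 were higher than in controls, together with Cd72, Cd52, Cd48, Cd1d1, Cd84 and Cd200r1. The pericyte and fibroblast antigen Cd248, the inhibitory ligand Cd200, the B7 family member Cd276, and Cd34, Cd82, Cd93 and Cd44 were lower. The 8 higher and 7 lower members were 41.7% of those tested, against 27% of all genes called in the same comparison. The groups did not overlap for Cd200 alone, which was lower, against 1.73% of all genes lower and 1.06% higher. The median log2 fold change was 0.25 over the members and 0.00 over all genes. Without control mouse 3 or without control mouse 8 the count rose to 20, of which 13 were higher. The share of all genes called in those fits was not set beside it, so the rise is not read as particular to the members.

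With both treatments, 7 members were higher and 12 lower than in controls, 52.8% of the members against 47.6% of all genes. Cd72, Cd69, Cd68, Cd52, Cd80, Cd200r1 and Cd44 were higher, and Cd1d2, Cd4, Cd83, Cd34, Cd200, Cd93, Cd46, Cd248, Cd1d1, Cd14, Cd276 and Cd82 were lower. The groups did not overlap for Cd72 and Cd68, which were higher, against 3.66% of all genes, and for Cd200, which was lower, against 3.56%. The median log2 fold change was -0.24 over the members and 0.01 over all genes. Reference gene scaling moved the latter to 0.11 and ended the calls of Cd14, Cd276 and Cd82.

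Adding bintrafusp alfa to radiation left most members uncalled, and those that were called were lower. Against RT alone, 11 of 36 members were lower and 0 higher, 30.6% of the members against 10.8% of all genes called, 7.13% lower and 3.66% higher. They were Cd1d2, Cd200, Cd248, Cd93, Cd80, Cd34, Cd14, Cd86, Cd200r1, Cd84 and Cd68. The count of 0 higher members held at an unadjusted p below 0.05, where 11 members passed and all were lower. It also held with the Wald test of DESeq2, which called 0 higher and 11 lower. Shares of all genes under these settings were not set beside these counts. The BA+RT and RT tumours overlapped for each of the 11, and the groups were apart and lower in BA+RT for 0.771% of all genes. The median log2 fold change was -0.08 over the members and 0.01 over all genes. The count fell to 7 when RT mouse 23, BA+RT mouse 37 or BA+RT mouse 39 was left out. Calls over all genes in those fits were not set beside it, so the fall is not read as particular to the members. Without RT mouse 24 Cd96 was called higher (log2 1.71, edgeR adjusted p 0.0367).

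Adding radiation to bintrafusp alfa changed most members. Against BA alone, 19 members were lower and 7 higher in BA+RT tumours, 72.2% of the members against 53.5% of all genes, of which 26.4% were lower and 27.1% higher. All 5 tested genes of the T cell receptor complex and T cell co-receptors were lower. The groups did not overlap for Cd68 and Cd44, which were higher, against 6.55% of all genes, and for Cd1d1, which was lower, against 5.11%. The median log2 fold change was -0.41 over the members and 0.02 over all genes, and reference gene scaling, which moved the median of all genes to 0.17, left 16 lower and 7 higher. These 5 comparisons share groups (control in 3 of them, BA+RT in 3), so their values are given side by side below and are not independent of each other.

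The T cell receptor complex recognises antigen, and its chains CD3δ and CD3ε and the ζ chain encoded by Cd247 pass the signal into the cell, while CD4 and CD8β bind MHC molecules as co-receptors. The 5 genes together reached a median of 25.7 CPM in control tumours, 76.8 CPM with BA, 13.5 CPM with RT and 15.5 CPM with BA+RT. Within the groups the spread was wide. RT mouse 24 reached 95.2 CPM while the other RT tumours lay at or below 23.1 CPM, and BA+RT mouse 40 reached 70.6 CPM while the others of its group lay at or below 24.9 CPM. In control tumours mouse 3 had 98.7 CPM, and the BA tumours ran from 39.8 to 171 CPM.

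Cd3d ranged from 2.35 to 24.9 CPM in controls (median 4.66), from 9.03 to 39.5 with BA (15.5), from 0.502 to 14.3 with RT (1.66) and from 1.60 to 11.9 with BA+RT (3.88). Cd3e ranged from 3.08 to 25.6 CPM in controls (median 7.75), from 10.1 to 38.8 with BA (21), from 1.51 to 31.5 with RT (4.22) and from 2.07 to 17.4 with BA+RT (4.05). For both genes the groups overlapped, and the overlap of BA+RT with BA came from BA+RT mouse 40. Cd4, the co-receptor of helper T cells, ranged from 2.35 to 18.8 CPM in controls (median 7.46), from 3.39 to 31.2 with BA (9.48), from 0.938 to 11.3 with RT (3.34) and from 0.579 to 5.47 with BA+RT (2.22). Cd8b1, the CD8β chain of cytotoxic T cells, ranged from 0 to 12.8 CPM in controls (median 2.91), from 0.632 to 34.6 with BA (8.85), from 0 to 13.1 with RT (1.81) and from 1.13 to 16.9 with BA+RT (2.66). The Cd247 values were 1.85 to 19.6 CPM in controls (median 6.30), 10.1 to 37.4 with BA (15), 2.01 to 25 with RT (3.34) and 2.66 to 18.9 with BA+RT (4.15). Every group of Cd8b1 and Cd247 overlapped every other group. For Cd247, BA overlapped the irradiated groups only through RT mouse 24 and BA+RT mouse 40. Outside BA, both genes had low values in most tumours and high values in a few.

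Against BA alone, BA+RT tumours had 4.55-fold lower Cd4 (log2 fold change -2.19, SE 0.44, edgeR adjusted p 0.000104), 4.10-fold lower Cd3d (-2.04, SE 0.49, adjusted p 0.000813) and 4.10-fold lower Cd3e (-2.03, SE 0.47, adjusted p 0.000556). Cd247 was 3.05-fold lower (-1.61, SE 0.46, adjusted p 0.00346) and Cd8b1 2.89-fold lower (-1.53, SE 0.60, adjusted p 0.0304). The Cd8b1 call was lost when BA mouse 11 or 15 or BA+RT mouse 41, 43 or 45 was left out (log2 fold changes of all 36 such fits from -2.19 to -1.20, adjusted p up to 0.0961) and under reference gene scaling. Of the 5 genes Cd4 alone passed in BA+RT against control (-1.33, SE 0.46, adjusted p 0.0162), a call lost without control mouse 3 (-1.07, adjusted p 0.0523). None passed in RT or BA against control. The log2 fold changes of the 5 lay between -1.27 and -0.58 with RT and between 0.86 and 1.54 with BA, and at an unadjusted p below 0.05 the numbers were 2 of 5 with RT and 5 of 5 with BA. Shares of all genes below the unadjusted threshold were not set beside these numbers. The DESeq2 Wald test called Cd3d and Cd4 lower with RT and Cd247 higher with BA. Cd3d missed the threshold with RT by little (-1.27, adjusted p 0.0501).

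**Figure D2:**
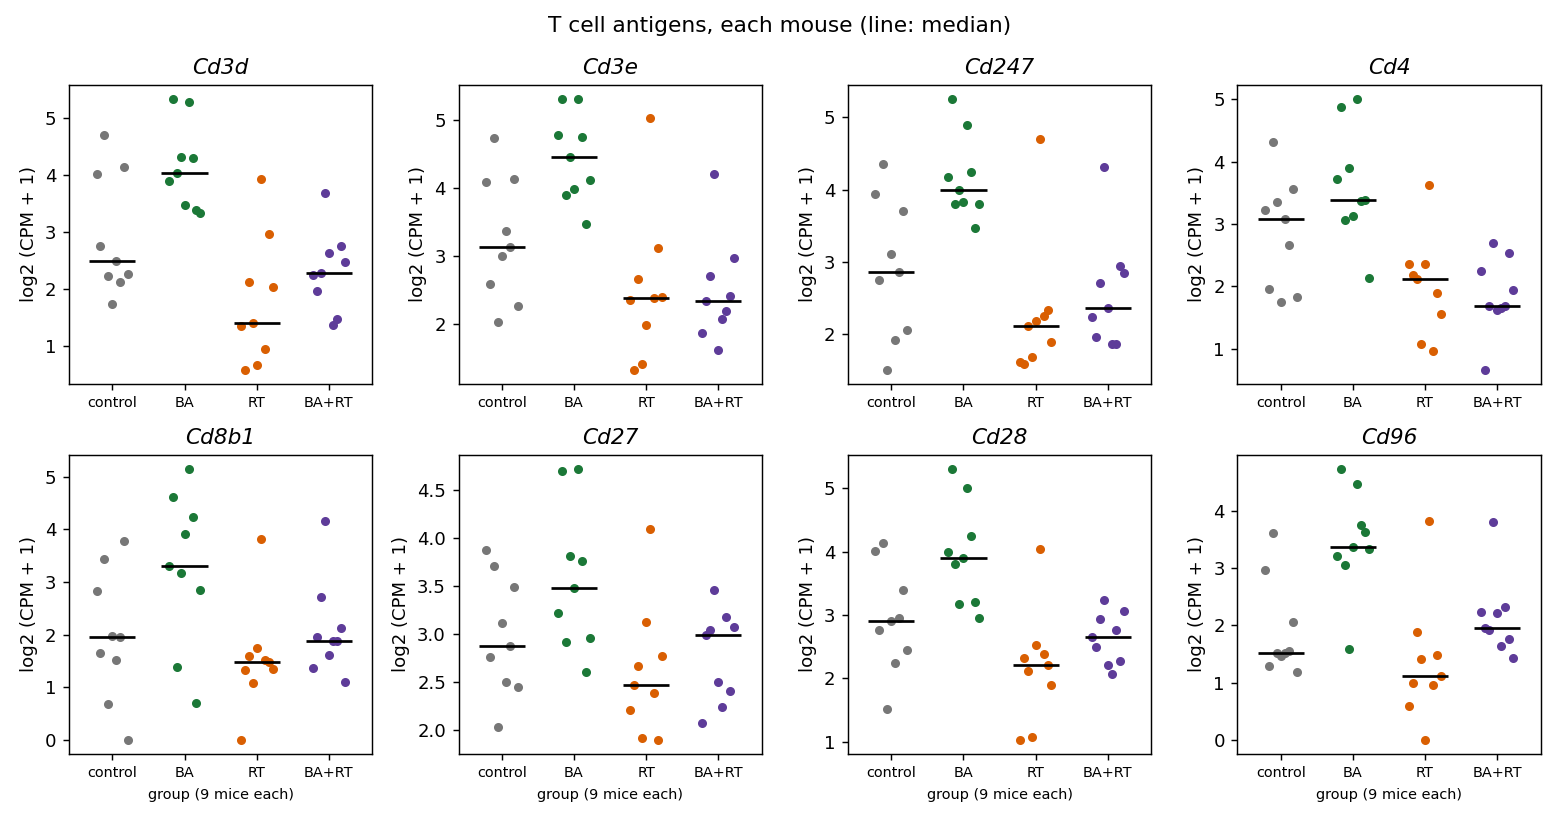
Each point is a mouse, with log2 (CPM + 1) on the y axis, the group on the x axis and the median as a line, for 8 T cell antigens. RT mouse 24 and BA+RT mouse 40 are the high points of their groups, for Cd3e at 31.5 and 17.4 CPM.

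Single mice decided several of these calls. Without RT mouse 24, Cd3d, Cd3e, Cd247, Cd4, Cd28 and Cd96 were all called lower in RT against control. Their log2 fold changes were -1.88, -1.37, -1.45, -1.46, -1.33 and -1.46. The count of members called in this comparison rose from 15 to 20. The calls over all genes in that fit were not set beside it, so the rise is not read as particular to the members. Without control mouse 3, or without control mouse 8, Cd3d, Cd3e, Cd247 and Cd8b1 were called higher in BA against control, with log2 fold changes of up to 1.46, 1.40, 1.42 and 1.95 in these leave-one-out fits. With control mouse 8, RT mouse 24 and BA+RT mouse 40 all left out, a choice made after the values were seen, the members called numbered 21 for RT against control (8 higher, 13 lower), 20 for BA against control (13 and 7) and 18 for BA+RT against control (4 and 14). In the same fit they numbered 10 for BA+RT against RT (0 and 10), 25 for BA+RT against BA (6 and 19) and 10 for the interaction (3 and 7). Over all genes that fit called 455, 352, 473, 93, 567 and 130 in the same order of comparisons, against 432, 280, 494, 112, 555 and 86 with all mice. No BA mouse was left out, although BA mice 11 and 15 reached 168 and 171 CPM for the T cell receptor and co-receptor genes together. Control mouse 3, the highest control at 98.7 CPM, was kept, while control mouse 8 had 68.9 CPM. High values thus left every group but BA, and the comparisons with BA in that fit are one-sided.

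CD27, CD28 and CD96 are receptors of T and NK cells: CD27 and CD28 costimulate, and CD96 binds nectin-like ligands. Cd28 ranged from 1.85 to 16.6 CPM in controls (median 6.45), from 6.77 to 38.8 with BA (14), from 1.03 to 15.5 with RT (3.62) and from 3.20 to 8.45 with BA+RT (5.32). Cd96 ranged from 1.27 to 11.3 CPM in controls (median 1.87), from 2.0 to 25.6 with BA (9.33), from 0 to 13.1 with RT (1.16) and from 1.70 to 12.9 with BA+RT (2.9). BA tumours held the highest values of both genes, and the groups overlapped. With BA against control Cd96 was 3.46-fold higher (log2 1.79, SE 0.52, edgeR adjusted p 0.00972) and Cd28 2.17-fold higher (1.12, SE 0.39, adjusted p 0.0294). The Cd28 call was lost without control mouse 4, 5 or 9 or BA mouse 11 or 15, where the log2 fold change went as low as 0.87 (adjusted p up to 0.101). In BA+RT against BA, Cd28 (-1.63, SE 0.39, adjusted p 0.000784), Cd96 (-1.54, SE 0.49, adjusted p 0.00893) and Cd27 (-1.0, SE 0.34, adjusted p 0.0137) were lower. Tigit, which shares ligands with CD96, was called higher in RT (1.04) and BA+RT (1.09) against control and in BA+RT against BA (1.40). Cd7, an early T lineage antigen, lay between 0.669 and 8.40 CPM in all tumours and passed in no comparison.

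Cd69, which encodes an antigen that appears soon after activation of lymphocytes and also on other leukocytes, went the other way in irradiated tumours. It ranged from 18.4 to 44.03 CPM in controls (median 26.2), from 22.8 to 43.6 with BA (33.9), from 31.1 to 94.8 with RT (46.4) and from 43.4 to 89.4 with BA+RT (56.7). The irradiated groups lay mostly above the others, and the top value of the controls, 44.03 CPM in mouse 8, and of BA, 43.6 CPM, just reached into the BA+RT range. Cd69 was 1.89-fold higher with RT than in controls (log2 0.92, SE 0.18, edgeR adjusted p 0.000104), 2.17-fold higher with BA+RT than in controls (1.12, SE 0.18, adjusted p 6.02e-06) and 1.75-fold higher with BA+RT than with BA (0.81, SE 0.18, adjusted p 0.000359). The BA change of 0.31 and the BA+RT against RT change of 0.20 did not pass.

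Other T and NK cell genes of the panels were counted beside these antigens. Of 7 tested genes for T cell receptor signalling, BA against control called 3 higher (Skap1 1.37, Zap70 0.91 and Lck 0.46, log2 fold changes) and 0 lower, and BA+RT against BA called 4 lower (Skap1 -1.55, Zap70 -1.45, Trat1 -0.73 and Ptprc -0.29) and 0 higher. At an unadjusted p below 0.05, with no share of all genes set beside it, the numbers were 4 genes in each of these comparisons. Their summed level was 973 to 1537 CPM in control tumours, 1157 to 1672 with BA, 1217 to 1647 with RT and 1022 to 1721 with BA+RT. Ptprc and Fyb, with control means of 799 and 387 CPM, made up most of it, against 22.9 CPM for Zap70 and 4.11 CPM for Skap1. Of 6 NK cell markers, BA against control called 4 higher (Prf1 3.98, Nkg7 2.22, Ncr1 1.74 and Klrd1 1.71) and Eomes lower (-0.38), and BA+RT against BA called the same 4 lower and Eomes higher. The summed NK level was 101 to 325 CPM in control tumours, 286 to 681 with BA, 124 to 185 with RT and 153 to 538 with BA+RT. No gene of either list was at 0 throughout a group, and the part of NK cells in the changes of Cd247, Cd7, Cd27 and Cd96, which NK cells also express, was not tested.

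CD28 and its relatives bind ligands of the B7 family. Of 8 tested genes of both families that are not members, RT against control called 5 lower (Pdcd1lg2 -2.05, Ctla4 -1.44, Icos -1.02, Btla -0.79 and Tnfrsf14 -0.43) and Vtcn1 higher (2.23). With BA, 5 were called higher (Ctla4 1.80, Icos 1.49, Pdcd1lg2 1.40, Pdcd1 0.95 and Icosl 0.30) and 0 lower, with 5 also at an unadjusted p below 0.05. No share of all genes below the unadjusted threshold was set beside that number. In BA+RT against BA 6 of the 8 were lower and Vtcn1 was higher. Tnfrsf14, which encodes a receptor for BTLA and CD160, belongs to another family and was placed in this list as a partner.

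Among the tested members with roles on B cells, Cd72 had the largest change in RT and in BA+RT tumours against control. Cd200 changed more with BA (log2 -0.80 against 0.50). CD72 is an inhibitory receptor of B cells that myeloid cells also carry. It ranged from 62.5 to 143 CPM in controls (median 118), from 124 to 215 with BA (165), from 192 to 388 with RT (278) and from 167 to 344 with BA+RT (248). All RT and BA+RT tumours lay above all control tumours, while BA overlapped both control and irradiated groups. Cd72 was 2.47-fold higher with RT (log2 1.30, SE 0.16, edgeR adjusted p 3.00e-08), 1.41-fold higher with BA (0.50, SE 0.16, adjusted p 0.0154) and 2.29-fold higher with BA+RT (1.20, SE 0.16, adjusted p 1.32e-07) than in controls. It was 1.63-fold higher with BA+RT than with BA (0.70, SE 0.15, adjusted p 0.000286), and BA+RT did not pass against RT (-0.10, adjusted p 0.720). These 4 calls held in all 8 alternative analyses and all 36 leave-one-out fits.

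Cd79a, a signalling chain of the B cell receptor, was at or near 0, with 29 counts over all 36 libraries and 0 in 19 of them. Of 6 further B cell genes on the panels 3 were tested. Blnk was called higher with RT (0.31), Igkc was called lower in BA+RT against BA (-3.69), and Bank1 passed in no comparison. Igkc varied widely between BA tumours, with a mean of 148 CPM, a standard deviation of 264 CPM and a median of 18.7 CPM. With BA+RT its mean was 11.2 CPM and its median 5.54 CPM. The summed level of the 6 genes was 126 to 497 CPM in controls, 121 to 937 with BA, 134 to 546 with RT and 124 to 222 with BA+RT, and median Ms4a1, the gene of CD20, lay between 0 and 1.76 CPM. Cd22, an inhibitory lectin of B cells, ranged from 14.9 to 90.0 CPM over all tumours and Cd38, an enzyme on many activated leukocytes, from 328 to 839 CPM, and neither passed in any comparison.

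CD200 is a ligand on stromal, endothelial and lymphoid cells that inhibits myeloid cells through CD200R1. Cd200 ranged from 193 to 327 CPM in controls (median 239), from 117 to 163 with BA (143), from 160 to 279 with RT (253) and from 93.2 to 175 with BA+RT (122). All BA and BA+RT tumours lay below all control tumours, whereas RT tumours overlapped the controls. Cd200 fell 1.74-fold with BA (log2 -0.80, SE 0.12, edgeR adjusted p 8.18e-06) and 1.88-fold with BA+RT (-0.91, SE 0.12, adjusted p 2.15e-07) against control, and 1.83-fold in BA+RT against RT (-0.87, SE 0.12, adjusted p 5.62e-06). RT changed it by -0.04 (adjusted p 0.811). Its receptor gene Cd200r1 ranged from 168 to 291 CPM in controls (median 226), from 238 to 315 with BA (274), from 282 to 418 with RT (325) and from 237 to 290 with BA+RT (264). The RT tumours were the highest, and the lowest RT value of 282 CPM lay below the top control value. Cd200r1 was 1.44-fold higher with RT (0.53, SE 0.08, adjusted p 1.51e-06) and 1.20-fold higher with BA (0.27, SE 0.08, adjusted p 0.00958) than in controls, and 1.25-fold lower with BA+RT than with RT (-0.32, SE 0.08, adjusted p 0.00571). Its call in BA+RT against control (0.20, adjusted p 0.0310) was lost in 29 of 36 leave-one-out fits.

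The ligands CD80 and CD86 on antigen-presenting cells bind CD28 and CTLA-4. Cd80 ranged from 43.1 to 86.3 CPM in controls (median 55.3), from 41.4 to 68.3 with BA (59.4), from 85.7 to 132 with RT (107) and from 50.6 to 105 with BA+RT (77.7). The RT tumours lay above all control tumours but 1, control mouse 5, and the BA+RT tumours lay between. Cd80 was 1.75-fold higher with RT than in controls (log2 0.81, SE 0.14, edgeR adjusted p 1.08e-05), 1.37-fold lower with BA+RT than with RT (-0.46, SE 0.13, adjusted p 0.0227) and 1.35-fold higher with BA+RT than with BA (0.44, SE 0.14, adjusted p 0.00758). The call against RT was lost without RT mouse 23 or BA+RT mouse 37 or 39 (log2 fold changes from -0.52 to -0.39 over all such fits, adjusted p up to 0.0661). The call in BA+RT against control (0.35, adjusted p 0.0339) was lost in 11 of 36 leave-one-out fits.

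Cd86 ranged from 186 to 292 CPM in controls (median 237), from 230 to 329 with BA (276), from 192 to 371 with RT (246) and from 142 to 276 with BA+RT (191). The groups overlapped, with most BA+RT tumours at the low end. It was 1.28-fold lower with BA+RT than with RT (log2 -0.36, SE 0.11, edgeR adjusted p 0.0261), a call lost in 8 of 36 leave-one-out fits, and 1.40-fold lower than with BA (-0.48, SE 0.11, adjusted p 0.000403). It did not pass with RT or BA against control.

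Cd83, whose product marks mature dendritic cells and activated lymphocytes, was lower after radiation. It ranged from 58.8 to 183 CPM in controls (median 122), from 95.2 to 181 with BA (139), from 40.8 to 97.6 with RT (54.6) and from 40.4 to 115 with BA+RT (56.0). The high irradiated tumours were RT mouse 27 and BA+RT mouse 40, and the low control was mouse 6. Cd83 was 2.11-fold lower with RT (log2 -1.08, SE 0.20, edgeR adjusted p 3.31e-05) and 2.06-fold lower with BA+RT (-1.04, SE 0.20, adjusted p 4.59e-05) than in controls, and 2.18-fold lower with BA+RT than with BA (-1.12, SE 0.20, adjusted p 1.38e-05). Of 2 tested dendritic cell markers Ccr7 was called higher with BA (0.94) and lower in BA+RT against control (-0.56) and against BA (-1.50), and Irf8 passed in no comparison. Their level summed with a further, untested marker was 405 to 902 CPM in controls, 439 to 698 with BA, 459 to 578 with RT and 410 to 814 with BA+RT. The part of dendritic cell number in the Cd83 values was not tested.

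Cd276 encodes B7-H3, a B7 family member on tumour and stromal cells. It ranged from 585 to 859 CPM in controls (median 710), from 413 to 637 with BA (532), from 564 to 768 with RT (645) and from 474 to 677 with BA+RT (633). BA tumours were lowest and overlapped every other group. Cd276 was 1.37-fold lower with BA (log2 -0.46, SE 0.08, edgeR adjusted p 0.000103) and 1.19-fold lower with BA+RT (-0.25, SE 0.08, adjusted p 0.0137) than in controls. The higher call against BA (0.21, adjusted p 0.0376) was lost in 26 of 36 leave-one-out fits. The lower call with BA+RT against control was lost under reference gene scaling.

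**Figure D3:**
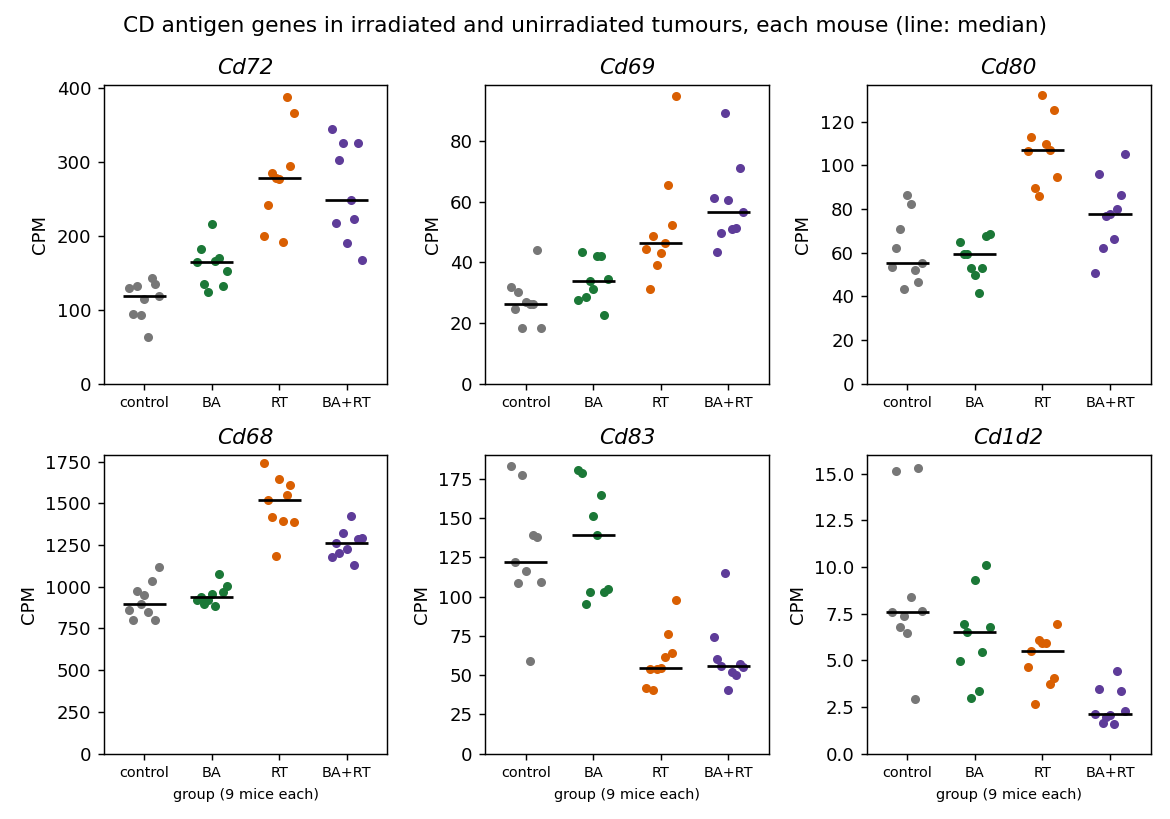
CPM of each mouse (points) by group with the median as a line, for 6 genes with calls between irradiated and unirradiated tumours. For Cd72 and Cd68 all 9 RT tumours lie above all 9 control tumours, and for Cd83 and Cd1d2 the irradiated tumours lie at the low end.

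CD68 is a lysosomal glycoprotein of macrophages and other phagocytes. Cd68 ranged from 798 to 1118 CPM in controls (median 895), from 887 to 1075 with BA (939), from 1186 to 1742 with RT (1518) and from 1128 to 1423 with BA+RT (1260). Every irradiated tumour lay above every unirradiated tumour. Cd68 was 1.63-fold higher with RT (log2 0.70, SE 0.06, edgeR adjusted p 1.56e-10) and 1.37-fold higher with BA+RT (0.45, SE 0.06, adjusted p 6.33e-07) than in controls, 1.32-fold higher with BA+RT than with BA (0.40, SE 0.06, adjusted p 3.83e-06) and 1.19-fold lower with BA+RT than with RT (-0.25, SE 0.06, adjusted p 0.00964). BA alone changed it by 0.05 (adjusted p 0.614).

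Macrophage markers of the panels did not all move with Cd68. Of 4 tested markers RT called 3 higher (Adgre1 0.69, Msr1 0.48 and Fcgr1 0.32) and Csf1r lower (-0.55), and Marco, a further marker, was at 0 in every group. BA+RT against BA called Adgre1 higher (0.84) and Csf1r (-0.75) and Msr1 (-0.35) lower. The summed level of the list was 2100 to 3240 CPM in controls, 2691 to 3642 with BA, 2044 to 3204 with RT and 2118 to 3129 with BA+RT. Csf1r held the largest part of this sum, with means of 1697 CPM in controls and 1159 CPM with RT. The similar RT and control ranges of the sum therefore do not speak for the other markers. The part of macrophage number in the Cd68 values was not tested.

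Cd68 and Cd80 were both higher in RT tumours, and the 250 bases upstream of their starts are shown because both hold the AP-1 element TGANTCA, in capitals. Among the other members called higher with RT for which a window was found, Cd84 also holds it, whereas Cd72 and Cd48 do not. The windows are those of RefSeq on GRCm38.p6, at chr11:69666171-69666420 on the minus strand for Cd68 and chr16:38458683-38458932 on the plus strand for Cd80, written in the direction of the gene.
Cd68 promoter: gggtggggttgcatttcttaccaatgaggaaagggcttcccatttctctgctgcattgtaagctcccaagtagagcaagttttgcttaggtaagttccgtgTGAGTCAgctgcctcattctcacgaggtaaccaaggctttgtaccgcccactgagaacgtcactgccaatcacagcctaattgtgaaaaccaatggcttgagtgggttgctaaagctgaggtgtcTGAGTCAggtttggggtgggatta
Cd80 promoter: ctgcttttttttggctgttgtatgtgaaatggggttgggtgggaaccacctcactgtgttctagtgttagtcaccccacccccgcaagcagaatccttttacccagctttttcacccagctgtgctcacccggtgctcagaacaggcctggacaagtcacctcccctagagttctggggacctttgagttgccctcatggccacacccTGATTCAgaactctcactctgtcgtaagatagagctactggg

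Promoters of 28 members were found in the RefSeq table, 32 windows in all. TGANTCA, searched on both strands in windows of 300 bases, was in 5 of them (Cd207, Cd244a, Cd68, Cd80 and Cd84), against 7.81% of 32851 windows of all genes. The core of the interferon-stimulated response element was in 1 (Cd46), against 3.44% of all windows, TTCNNNGAA in 4 (Cd160, Cd3d, Cd82 and Cd96), against 8.30%, and GTCTAGAC in 0, against 0.213%. The TTCNNNGAA and interferon-stimulated elements can share bases, and a match says only that the letters are there.

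The CD1d molecules present lipids to NKT cells, and both genes were lower after radiation. The calls of both with RT against control were lost under reference gene scaling. Cd1d1 ranged from 171 to 342 CPM in controls (median 281), from 291 to 409 with BA (331), from 150 to 265 with RT (195) and from 165 to 260 with BA+RT (208). All BA+RT tumours lay below all BA tumours, and the low control, mouse 6, reached into the irradiated range. Cd1d1 was 1.36-fold lower with RT (log2 -0.44, SE 0.11, edgeR adjusted p 0.00177) and 1.32-fold lower with BA+RT (-0.40, SE 0.11, adjusted p 0.00389) than in controls, 1.28-fold higher with BA (0.36, SE 0.11, adjusted p 0.0148), and 1.69-fold lower with BA+RT than with BA (-0.75, SE 0.11, adjusted p 1.28e-06). Cd1d2 ranged from 2.91 to 15.3 CPM in controls (median 7.59), from 2.99 to 10.1 with BA (6.51), from 2.67 to 6.97 with RT (5.52) and from 1.60 to 4.44 with BA+RT (2.13). The groups overlapped at the low end, and BA+RT was lowest. Cd1d2 was 3.25-fold lower with BA+RT than in controls (-1.70, SE 0.27, adjusted p 5.02e-06), 2.43-fold lower than with BA (-1.28, SE 0.28, adjusted p 0.000311) and 1.95-fold lower than with RT (-0.96, SE 0.28, adjusted p 0.0222). Its call with RT against control (-0.74, SE 0.25, adjusted p 0.0181) was lost without control mouse 2 or 8, with log2 fold changes from -0.87 to -0.61 over all such fits and adjusted p up to 0.0510.

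CD14 binds lipopolysaccharide for TLR4, CD84 is a SLAM family receptor, and CD93 is a lectin-like protein of endothelium and myeloid cells. Cd14 ranged from 368 to 628 CPM in controls (median 483), from 430 to 803 with BA (516), from 369 to 576 with RT (490) and from 307 to 614 with BA+RT (342). The BA+RT tumours were low except mouse 45, which held the value of 614 CPM while the next was 417 CPM. Cd14 was 1.28-fold lower with BA+RT than in controls (log2 -0.36, SE 0.12, edgeR adjusted p 0.0122) and 1.49-fold lower than with BA (-0.58, SE 0.12, adjusted p 0.000121). Its lower call against RT (-0.37, SE 0.12, adjusted p 0.0348) was lost in 14 of 36 leave-one-out fits. The call with BA+RT against control was lost under reference gene scaling. Myd88, the only measured partner of the CD14 pathway on the list, was called higher with RT (0.19) and with BA+RT (0.16) against control.

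Cd84 ranged from 455 to 730 CPM in controls (median 624), from 642 to 898 with BA (704), from 572 to 883 with RT (753) and from 498 to 754 with BA+RT (598). Either treatment alone sat higher than control, and the combination sat at the control level. Cd84 changed by 0.27 with RT (SE 0.09, edgeR adjusted p 0.0172) and by 0.28 with BA (SE 0.09, adjusted p 0.0225), calls lost in 6 and 3 of 36 leave-one-out fits. It was lower with BA+RT than with BA (-0.31, SE 0.09, adjusted p 0.00521). The lower call against RT (-0.30, adjusted p 0.0286) was lost in 11 such fits.

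Cd93 ranged from 340 to 577 CPM in controls (median 428), from 298 to 435 with BA (385), from 274 to 442 with RT (399) and from 209 to 341 with BA+RT (265). The BA+RT tumours lay below all controls but mouse 3, whose 340 CPM was just under the top BA+RT value. Cd93 was 1.72-fold lower with BA+RT than in controls (log2 -0.78, SE 0.10, edgeR adjusted p 2.13e-07), 1.44-fold lower than with RT (-0.52, SE 0.10, adjusted p 0.00111) and 1.42-fold lower than with BA (-0.51, SE 0.10, adjusted p 0.000134). Against control it was also called lower with RT (-0.26, adjusted p 0.0428) and BA (-0.27, adjusted p 0.0452), calls lost in 4 and 19 of 36 leave-one-out fits. The call with RT was also lost under reference gene scaling.

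Other myeloid antigens varied more between mice than between groups. Cd36, a fatty acid and lipoprotein receptor of macrophages, adipocytes, endothelium and muscle, ranged from 104 to 2279 CPM in controls (median 202), from 103 to 843 with BA (393), from 120 to 976 with RT (608) and from 112 to 1480 with BA+RT (426). The top control value was that of mouse 6, and the next was 685 CPM. Cd163, the haemoglobin-haptoglobin scavenger receptor, was also highest in control mouse 6 at 645 CPM and ranged from 22.5 to 309 CPM in the treated groups. Neither gene passed in any comparison, and without control mouse 6 the Cd36 change with RT went from 0.03 to 0.83 (edgeR adjusted p 0.126). Cd33, a sialic acid-binding receptor, was called in BA+RT against BA alone (-0.43, SE 0.12, adjusted p 0.00348), and Cd177, a neutrophil antigen, in none. Neutrophil genes were measured beside it: with BA+RT against control 2 of 6 tested genes were called higher and 3 lower.

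**Figure D4:**
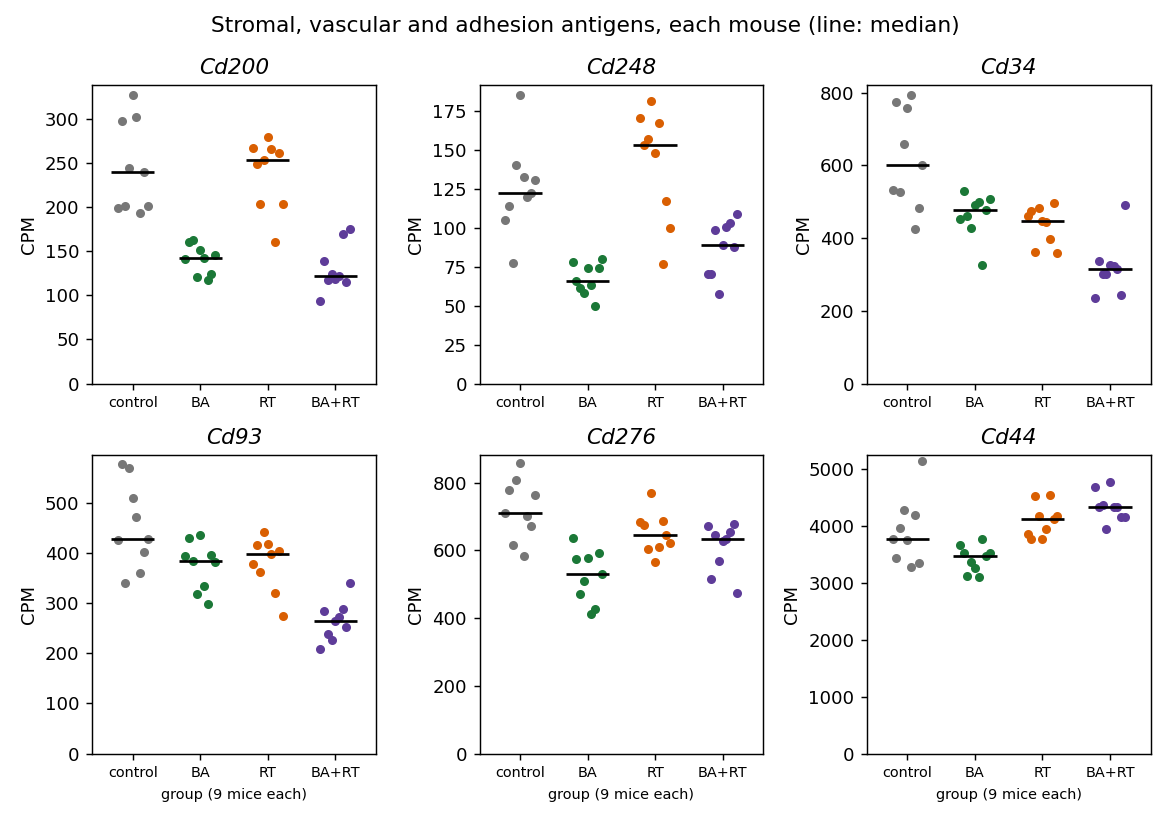
CPM of each mouse (points) by group with the median as a line, for 6 stromal, vascular and adhesion antigens. For Cd200 all BA and BA+RT tumours lie below all control tumours, and Cd34 and Cd93 are lowest with BA+RT, with medians of 315 and 265 CPM.

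Among stromal and vascular antigens, Cd248 was lower wherever bintrafusp alfa was given. Cd34 was lower with every treatment, with RT by a call that depended on the scaling. CD248 (endosialin) is carried by pericytes and fibroblasts. Cd248 ranged from 77.6 to 185 CPM in controls (median 123), from 49.98 to 80.1 with BA (65.8), from 76.9 to 181 with RT (153) and from 57.1 to 109 with BA+RT (88.6). The BA tumours overlapped the controls only through control mouse 3, the lowest at 77.6 CPM. Cd248 was 1.86-fold lower with BA (log2 -0.90, SE 0.15, edgeR adjusted p 3.58e-05) and 1.44-fold lower with BA+RT (-0.52, SE 0.15, adjusted p 0.00443) than in controls, and 1.62-fold lower with BA+RT than with RT (-0.69, SE 0.15, adjusted p 0.00278). Its higher call in BA+RT against BA (0.38, adjusted p 0.0365) was lost in 11 of 36 leave-one-out fits.

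CD34 is a sialomucin of vascular endothelium and progenitor cells. Cd34 ranged from 426 to 794 CPM in controls (median 601), from 326 to 530 with BA (476), from 358 to 496 with RT (446) and from 236 to 492 with BA+RT (315). The BA+RT tumours were lowest apart from mouse 45, whose 492 CPM was well above the next value of 338 CPM. Cd34 was 1.42-fold lower with RT (log2 -0.50, SE 0.12, edgeR adjusted p 0.000967), 1.33-fold lower with BA (-0.41, SE 0.12, adjusted p 0.00974) and 1.93-fold lower with BA+RT (-0.95, SE 0.12, adjusted p 9.33e-08) than in controls. It was 1.36-fold lower with BA+RT than with RT (-0.45, SE 0.12, adjusted p 0.0126) and 1.45-fold lower than with BA (-0.54, SE 0.12, adjusted p 0.000356). The call with RT against control was lost under reference gene scaling.

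Cd44, the hyaluronan receptor, ranged from 3275 to 5135 CPM in controls (median 3756), from 3105 to 3767 with BA (3468), from 3763 to 4539 with RT (4119) and from 3939 to 4759 with BA+RT (4326). All BA+RT tumours lay above all BA tumours, and the change was 1.27-fold (log2 0.34, SE 0.06, edgeR adjusted p 3.37e-05). Its lower call with BA (-0.19, adjusted p 0.0239) and its higher call with BA+RT against control (0.15, adjusted p 0.0463) were lost in 5 and 33 of 36 leave-one-out fits.

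Fibroblast and endothelial genes moved beside these antigens. Of 5 tested fibroblast and pericyte markers, 4 were called lower with BA against control (Cspg4 -1.72, Fap -0.85, Col1a2 -0.79 and Pdgfrb -0.48), the same 4 with BA+RT against control, 2 with RT (Pdgfrb -0.63 and Fap -0.46), and 0 higher in any of the 3. Their summed level had a median of 64671 CPM in controls, 48452 in the BA group, 71903 in the RT group and 54205 in the BA+RT group. Col1a2 and Col3a1, with control means of 48954 and 21490 CPM, made up most of it. The sum ran from 35901 to 85141 CPM with RT and from 54834.5 to 100989 CPM in controls. The higher RT median does not speak for the single genes, whose log2 fold changes with RT lay between -0.63 and -0.11. Of 2 endothelial markers Kdr was called lower with BA (-0.39), with BA+RT against control (-0.70), against RT (-0.47) and against BA (-0.32), and Eng was called higher with RT (0.27) and lower in BA+RT against RT (-0.30). Their summed level was 1700 to 2636 CPM in controls, 1675 to 2255 with BA, 2124 to 3003 with RT and 1679 to 2529 with BA+RT. The part of fibroblast, pericyte and endothelial cell number in the changes of Cd248, Cd200, Cd34 and Cd93 was not tested.

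CD46 is a complement regulator, CD52 a small anchored glycoprotein of leukocytes, and CD82 a tetraspanin. Cd46 ranged from 76.1 to 120 CPM in controls (median 102), from 81.8 to 132 with BA (103), from 49.2 to 80.2 with RT (65.2) and from 56.0 to 91.4 with BA+RT (65.3). The irradiated tumours lay mostly below the others, with a small overlap of the ranges. Cd46 was 1.53-fold lower with RT (log2 -0.62, SE 0.11, edgeR adjusted p 1.76e-05) and 1.44-fold lower with BA+RT (-0.52, SE 0.11, adjusted p 0.000136) than in controls, and 1.46-fold lower with BA+RT than with BA (-0.55, SE 0.11, adjusted p 6.91e-05). BA changed it by 0.02.

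Cd52 ranged from 1046 to 2332 CPM in controls (median 1844), from 2130 to 2940 with BA (2318), from 1646 to 3168 with RT (2042) and from 1949 to 3151 with BA+RT (2218). Control mouse 6 was the lowest, and all groups overlapped. Cd52 was 1.36-fold higher with BA (log2 0.44, SE 0.12, edgeR adjusted p 0.00558) and 1.33-fold higher with BA+RT (0.41, SE 0.12, adjusted p 0.00470) than in controls. The RT call (0.33, adjusted p 0.0229) was lost without control mouse 2, 4 or 6 or RT mouse 23, 25, 26 or 27, where the change was as low as 0.23 (adjusted p up to 0.108).

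The interaction asked whether bintrafusp alfa changed a gene by a different amount in irradiated tumours. It did for 7 of 36 members, 1 higher and 6 lower, which is 19.4% of the members against 8.29% of all genes called (3.37% higher and 4.91% lower). Lower means that bintrafusp alfa raised a gene less, or lowered it more, in irradiated tumours. The median interaction was -0.37 over the members and 0.02 over all genes. With DESeq2 size factors the split was 3 higher and 5 lower, and with reference gene scaling 0 and 5.

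CD48 is a ligand of the SLAM family receptor CD244 and of CD2. Cd48 ranged from 117 to 156 CPM in controls (median 145), from 143 to 241 with BA (176), from 103 to 197 with RT (172) and from 117 to 186 with BA+RT (148). It was 1.34-fold higher with BA than in controls (log2 0.42, SE 0.11, edgeR adjusted p 0.00272), while BA+RT did not pass against RT (-0.20, adjusted p 0.231), and the difference of these changes was -0.62 (SE 0.15, adjusted p 0.00623). BA tumours and most RT tumours thus sat above control, and BA+RT tumours sat with the controls. Its call with RT (0.25, adjusted p 0.0490) was lost in 34 of 36 leave-one-out fits and in 6 of 8 alternative analyses.

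The same difference was -0.61 for Cd86 (SE 0.15, edgeR adjusted p 0.00977), -0.60 for Cd14 (SE 0.17, adjusted p 0.0199), -0.59 for Cd200r1 (SE 0.11, adjusted p 0.000983) and -0.57 for Cd84 (SE 0.13, adjusted p 0.00410). For these 4 genes the log2 change with BA lay between 0.22 and 0.28 without radiation and between -0.37 and -0.30 with it. The interaction calls of these 4 and of Cd48 held in all 7 alternative analyses and all 36 leave-one-out fits, but that of Cd14 was lost when control mouse 8, RT mouse 24 and BA+RT mouse 40 were left out together (-0.50, adjusted p 0.0546). The Cd68 difference was -0.30 (SE 0.09, adjusted p 0.0332) and lost its call in 6 of 7 alternative analyses and 21 of 36 leave-one-out fits.

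Cd82 was the member with a higher interaction. It ranged from 1052 to 1913 CPM in controls (median 1260), from 858 to 1175 with BA (1092), from 840 to 1238 with RT (1009) and from 1057 to 1238 with BA+RT (1103). The RT tumours lay mostly below the lowest control, the BA and BA+RT tumours lay mostly within the lower part of the control range, and the top control was mouse 6. Cd82 was 1.28-fold lower with RT (log2 -0.35, SE 0.08, edgeR adjusted p 0.000517), 1.22-fold lower with BA (-0.28, SE 0.08, adjusted p 0.00711) and 1.16-fold lower with BA+RT (-0.21, SE 0.08, adjusted p 0.0242) than in controls. BA thus changed it by -0.28 without and by 0.14 with radiation, a difference of 0.42 (SE 0.11, adjusted p 0.0143) whose call was lost under reference gene scaling (0.39, adjusted p 0.121). Under the same scaling the calls of Cd82 with RT and with BA+RT against control were lost too.

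**Figure D5:**
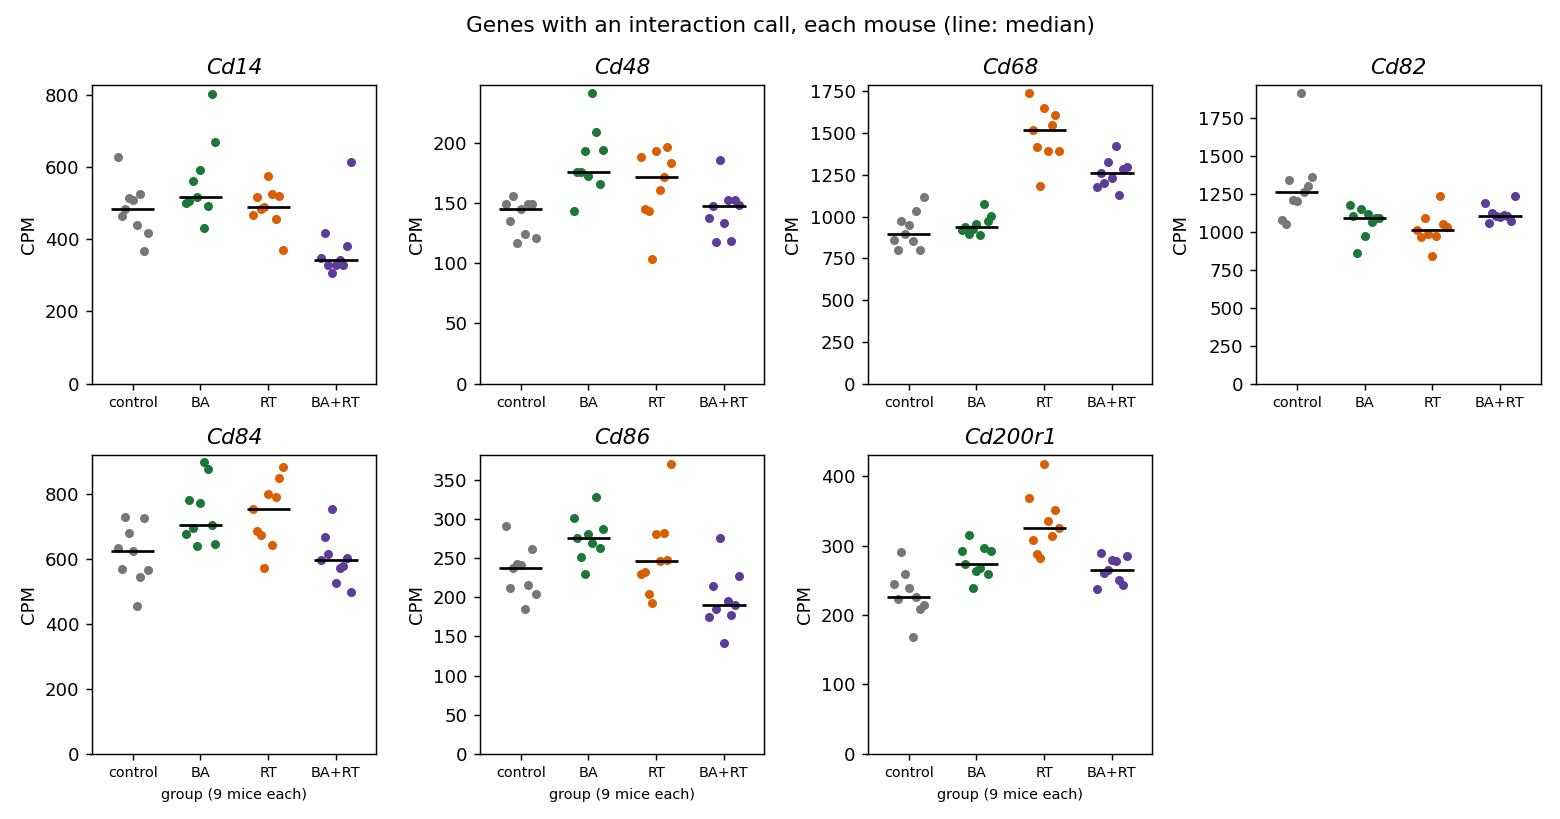
CPM of each mouse (points) by group with the median as a line, for the 7 genes with an interaction call. For Cd48, Cd84, Cd86 and Cd14 the BA median lies above that of control, while the BA+RT median lies below that of RT.

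The 10 members that failed the filter on low counts were read by few counts. Cd244, a SLAM receptor of NK and T cells, had 0 counts in all 36 libraries. For counting error only, this allows up to 0.0491 CPM over the libraries together. Whether its amplicon reads the transcript in these mice was not tested. Totals over the 36 libraries were 23 counts for Cd40lg, the ligand of CD40 on helper T cells, 29 for Cd79a, 37 for Cd207, the langerin gene, 75 for Cd70, the ligand of CD27, and 95 for Cd209e. They were 151 for Cd160, a receptor of NK and T cells, 244 for Cd6, a T cell adhesion receptor, and 339 for Cd5l, a protein that macrophages secrete.

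Cd5l is described further because its values differed between groups, a choice made after they were seen. It ranged from 0 to 6.53 CPM in controls (median 2.16), from 0 to 1.66 with BA (0.564), from 1.94 to 36.2 with RT (13.1) and from 0 to 4.80 with BA+RT (2.9). All but 2 RT tumours lay above every tumour of the other groups. Fitted without the filter, it was higher with RT than in controls (log2 2.73, SE 0.54, edgeR adjusted p 0.000108) and lower with BA+RT than with RT (-2.40, SE 0.50, adjusted p 0.00208), and higher with BA+RT than with BA (2.17, SE 0.76, adjusted p 0.0184). In the same fit Cd6 was higher with BA (1.33, adjusted p 0.0283) and lower in BA+RT against BA (-1.05, adjusted p 0.0393), and Cd160 was lower with BA+RT than with BA (-1.50, adjusted p 0.00427) and than in controls (-1.06, adjusted p 0.0484). Cd209e was lower with RT (-2.31, adjusted p 0.0134), from few counts.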

How the data were processed

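Each of 36 tumour RNAs was read with 2 targeted amplicon panels, giving 72 libraries, and all 46 CD antigen genes were on panel 1. The values of 1 gene that failed the filter on low counts are not reported here. The deposited table gives raw counts of each amplicon as whole numbers, per the file headers. No source used here says whether the authors counted reads or molecular barcodes, or with which aligner. A further deposited table gives regularized log values on the log2 scale, for which the submitters' processing notes name DESeq2, and it served 1 alternative. Position columns are headed GRCh38, but the amplicons lie in the named mouse genes on GRCm38. Genomic DNA control rows (2.32e-05% of counts) were left out. With 959532 to 2616197 counts per panel 1 library, 1 count is 0.382 to 1.04 CPM.

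The panels were fitted separately with edgeR 4.0.16 (R 4.3.3): TMM scaling, default filter by group, 1 fit of 4 groups of 9 mice, robust quasi-likelihood F test, two-sided, Benjamini-Hochberg adjustment over 1038 genes, calls below 0.05. The SE was taken from the log2 fold change and the F statistic, as their ratio with F under a square root. The method was tested on simulated data in which all genes had the same setting for the spread and no mouse was made to stand apart. The test therefore does not cover genes whose values rest on single mice. The members, role lists and marker lists were chosen with earlier results of these data known, and no list was tested as a set. Per comparison the 6 called members with the largest change in each direction were named with values, as was every member with an interaction call, and a member named in more than 1 comparison was shown with its range in each group. Alternatives were the Wald test of DESeq2 1.42.0, its size factors in edgeR, total counts without TMM, reference gene factors, no filter, the other panel for shared genes, only the groups compared, limma 3.58.1 on the deposited values, and each of 36 mice left out. No mouse number is shared between groups.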

Additional observations from a re-analysis of the deposited data

Results flagged for a closer look

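Each group of 9 tumours was searched for a highest or lowest value far from the rest, where the gap to the next value exceeded 0.493 of the group's range. Of 144 such groups (36 genes in 4 groups) 25 held one. Normally distributed values give about 1 in 20. Low counts need not follow that rate, and the 144 groups are not independent, as the genes share mice. RT mouse 24 accounted for 8 of them, all high: Cd247 at 25 CPM, Cd27 at 16.1, Cd28 at 15.5, Cd3d at 14.3, Cd3e at 31.5, Cd4 at 11.3, Cd8b1 at 13.1 and Cd96 at 13.1 CPM. BA+RT mouse 40 accounted for 7, all high: Cd247 at 18.9 CPM, Cd3d at 11.9, Cd3e at 17.4, Cd8b1 at 16.9, Cd96 at 12.9, Cd83 at 114.8 and Cd38 at 839.3 CPM.

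Control mouse 6 was high for Cd36 (2279 CPM), Cd163 (644.6 CPM) and Cd82 (1913 CPM) and low for Cd33 (393.6 CPM). BA+RT mouse 45 was high for Cd14 (614.4 CPM), Cd34 (491.9 CPM) and Cd36 (1480 CPM). Single values stood out for Cd177 in BA mouse 13 (69.8 CPM, high), Cd34 in BA mouse 16 (326.4 CPM, low) and Cd86 in RT mouse 27 (370.8 CPM, high).

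The change with bintrafusp alfa differed between irradiated and unirradiated tumours by the interaction test for 7 genes. The log2 differences were -0.60 for Cd14, -0.59 for Cd200r1, -0.62 for Cd48, -0.30 for Cd68, 0.42 for Cd82, -0.57 for Cd84 and -0.61 for Cd86.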

How the results depend on the processing

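Under the alternative analyses the number of CD antigen genes called in each comparison kept within 1.5 times its value. Counts ranged from 12 to 16 for RT against control (15 as reported), from 13 to 19 for BA against control (15), from 16 to 20 for BA+RT against control (19), from 8 to 12 for BA+RT against RT (11), from 23 to 29 for BA+RT against BA (26) and from 5 to 8 for the interaction (7). With each mouse left out in turn the counts ranged from 12 to 20, 11 to 20, 16 to 21, 7 to 11, 23 to 27 and 6 to 9 in the same order. Calls over all genes were not set beside these ranges, so they are not read as particular to the members. The 7 for BA+RT against RT came without RT mouse 23, BA+RT mouse 37 or BA+RT mouse 39, which lies beyond 1.5 times, and the cause was not tested. Of 481 values of single named genes under the alternatives, 464 stayed on their side of the threshold, 17 lost it and 0 turned direction. No paired analysis was possible because the groups share no mouse number. Genes at a few CPM, among them Cd1d2, Cd3d, Cd4, Cd8b1 and Cd96, rest on few counts per library, and the default filter kept 10 of the 46 genes out of the tests.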
